A study of Mus musculus with 14 samples.

Results

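Imprinted genes that act on fetal growth were examined in mouse embryo fibroblasts with and without p53: H19, Igf2, Igf2r, Grb10, Dlk1, Meg3, Plagl1, Peg3, Mest and Ndn. They were chosen by symbol, with earlier results of these data known. The lists of other genes below were also chosen with those results known, so their shares called are descriptions and not tests. All 10 were among the 20207 genes measured, and all 10 passed the filter on low values. Poly(A) RNA of fibroblasts of strain 129/Sv was sequenced from its 3′ end. The p53-/- (p53-null) cells gave 2 libraries after doxorubicin at 0.2 µg/ml for 6 h and 2 untreated ones, and the wild-type cells gave 3 libraries after the same treatment and 3 untreated ones. Doxorubicin is a topoisomerase poison that breaks DNA, and DNA breaks activate the transcription factor p53. The stated purpose of these libraries was to find genes that respond to DNA damage in each genotype and genes whose basal level depends on p53. The labels number the libraries without saying whether a number stands for an embryo, a culture or a repeat. The p-values therefore describe only the variation among the libraries at hand, which may be technical.

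An imprinted gene is expressed from the chromosome inherited from 1 parent, while the copy from the other parent is silenced by marks, mainly DNA methylation, set in the germ line. In most mouse tissues H19, Igf2r, Grb10 and Meg3 are expressed from the maternal copy, and Igf2, Dlk1, Plagl1, Peg3, Mest and Ndn from the paternal copy. Many of these genes are expressed strongly before birth and decline afterwards, and embryo fibroblasts are a cell type in which they are still transcribed. The 2 parental copies were not told apart in these data.

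Sequences are shown for the small RNA made from H19, the member with the most reads, and for promoters of members whose RNA differed between untreated genotypes. H19 RNA is the precursor of miR-675, known in the mouse for restraining placental growth. Its mature forms (RefSeq, GRCm38.p6) lie on the minus strand at chr7:142577112-142577133 and chr7:142577078-142577099, and capitals mark the seed, bases 2 to 8. Mature microRNAs carry no poly(A) tail and were not measured here.
mmu-miR-675-5p: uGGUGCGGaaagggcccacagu
mmu-miR-675-3p: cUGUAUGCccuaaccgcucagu

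RefSeq promoter windows (GRCm38.p6, 250 bases before to 50 after a gene start, read along the gene) were matched for 9 of the 10 members, in 16 entries. H19 had no entry. Both strands were searched for the p53 decamer (by name), GGGGCCCC (a site of ZAC1, the protein of Plagl1), CCGCGNGG (core of a CTCF site), GCCATNTT (a site of YY1) and TATAAA, found ahead of many genes with a sharp start. Of all 32851 windows, 8.36% held the p53 decamer, 1.08% GGGGCCCC, 6.26% CCGCGNGG, 6.05% GCCATNTT and 13.6% TATAAA. In the members' windows the p53 decamer was found in 1 of the Igf2 entries, GGGGCCCC in Peg3, and TATAAA in 1 of the Meg3 entries, on both strands in overlapping letters. A match is a description of the letters, and a window without one says nothing of the factor. Dlk1 (chr12:109452573-109452872, plus strand) and Meg3 (chr12:109540746-109541045, plus strand) belong to the same imprinted domain. Plagl1 (chr10:13090582-13090881, plus strand) and Peg3 (chr7:6730370-6730669, minus strand) encode zinc finger proteins, and their RNAs were both higher in untreated p53-null cells. Capitals mark the letters of TATAAA on either strand in Meg3 and of GGGGCCCC in Peg3.
Dlk1: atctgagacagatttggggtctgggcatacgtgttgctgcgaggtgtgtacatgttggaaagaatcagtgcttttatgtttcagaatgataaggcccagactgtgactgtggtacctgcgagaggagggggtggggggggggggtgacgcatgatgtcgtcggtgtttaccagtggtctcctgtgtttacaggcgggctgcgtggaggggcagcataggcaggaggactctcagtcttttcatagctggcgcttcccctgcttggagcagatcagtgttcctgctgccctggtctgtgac
Meg3: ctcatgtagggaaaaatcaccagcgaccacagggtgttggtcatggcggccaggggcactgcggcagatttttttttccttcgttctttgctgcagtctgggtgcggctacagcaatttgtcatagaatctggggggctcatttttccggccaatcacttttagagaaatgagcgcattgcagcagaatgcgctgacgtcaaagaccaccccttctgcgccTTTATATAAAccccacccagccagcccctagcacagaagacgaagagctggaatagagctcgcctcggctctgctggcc
Plagl1: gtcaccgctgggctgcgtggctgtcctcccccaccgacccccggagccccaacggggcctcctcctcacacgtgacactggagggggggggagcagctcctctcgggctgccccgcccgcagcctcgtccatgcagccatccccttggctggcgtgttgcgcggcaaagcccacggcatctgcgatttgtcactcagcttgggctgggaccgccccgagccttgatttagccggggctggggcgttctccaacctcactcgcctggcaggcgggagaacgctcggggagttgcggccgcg
Peg3: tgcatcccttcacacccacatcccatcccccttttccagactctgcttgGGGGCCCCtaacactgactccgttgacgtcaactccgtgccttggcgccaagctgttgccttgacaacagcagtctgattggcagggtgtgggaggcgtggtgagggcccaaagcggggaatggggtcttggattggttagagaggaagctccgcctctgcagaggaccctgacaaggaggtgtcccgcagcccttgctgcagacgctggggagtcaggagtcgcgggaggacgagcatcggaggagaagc

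The printed Dlk1 and Meg3 windows had a GC content of 55.7% and 53.7%, with 9 and 13 CpG dinucleotides. The median over all windows was 52.7% with 7 CpG. Plagl1 had 70.7% with 26 CpG and Peg3 61.3% with 13. The entries of Grb10, not printed, had 52.3% with 9 CpG and 80.0% with 45 CpG. A further entry of Meg3, not printed, had 50.3% with 1 CpG.

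Reads on listed genes numbered 18099506 to 25970157 in the p53-null libraries and 9768161 to 11770448 in the wild-type ones, so every p53-null library was deeper. Genes with a read numbered 16435 to 17161 in p53-null and 13549 to 14547 in wild-type libraries. Levels are given as CPM, reads brought to a common library size, after scaling by trimmed means of M values, whose factors ran from 1.04 to 1.22 in p53-null and from 0.860 to 0.951 in wild-type libraries. Cdkn1a, the p53 target that encodes p21, had 29.3 to 53.9 CPM in p53-null libraries, against 559 to 5096 CPM in wild-type libraries. Mdm2, the target that encodes the ubiquitin ligase of p53, rose 7.15-fold with doxorubicin in wild-type cells (adjusted p = 9.84e-05, limma). Trp53, which encodes p53, had 29.5 to 74.2 CPM in p53-null and 20.1 to 43.4 CPM in wild-type libraries, but reads of its 3′ end need not cover the deleted part and check nothing about the label. The 11 fibroblast markers summed to 4063 to 5766 CPM in p53-null and 3274 to 7508 CPM in wild-type libraries. That sum rests on the genes with most reads. Taken singly in untreated cells, 5 of the 11 were called higher in p53-null cells and 0 lower, where 33.1% of all genes were called. Their median log2 fold change was 0.91, beside 0.09 over all genes. After doxorubicin 0 of the 11 were called, with a median of -0.14. The 5 cartilage markers summed to 434 to 788 CPM in p53-null libraries, against 43.2 to 361 CPM in wild-type ones, with Matn1 at 0 to 7 reads in any library and Col9a1 at 0 in the untreated wild-type ones. The 11 blood and macrophage markers measured summed to 35.0 to 46.1 CPM in p53-null libraries, against 24.6 to 269 CPM in wild-type ones, with Hba-a1 at 0 in all libraries and Ptprc at 0 to 6 reads. In untreated cells 6 of these markers could be tested, and 0 were called higher and 1 lower in p53-null cells, where 33.1% of all genes were called. Cd14 had a log2 fold change of 0.20 (adjusted p = 0.716, limma) and Aif1 of -0.11 (adjusted p = 0.861). Tyrobp and Csf1r, genes of macrophages, made up most of that sum and are given because of their values. Tyrobp, an adaptor of myeloid receptors, had 16.0 and 15.5 CPM in untreated p53-null libraries, against 26.9, 119 and 121 CPM in untreated wild-type libraries (log2 fold change -2.18, adjusted p = 0.049, limma). Csf1r, the receptor for macrophage growth factors, had 16.1 and 12.3 CPM in untreated p53-null libraries, against 17.3, 83.0 and 107 CPM in untreated wild-type libraries (-1.90, adjusted p = 0.0881). The low wild-type value of both stood in library 1. The part of these markers in the genotype differences that follow was not tested, and in bulk RNA fewer cells of a type and less RNA per cell cannot be told apart. Y-linked genes summed to 207 and 216 reads in untreated p53-null libraries, against 166, 0 and 2 in untreated wild-type libraries, and to 136 and 15 in treated p53-null libraries, against 147, 7 and 9 in treated wild-type libraries. Xist, the RNA made from the inactive X chromosome of female cells, had 22 and 15 reads in untreated p53-null libraries, against 82, 86 and 161 in untreated wild-type libraries, and 29 and 399 in treated p53-null libraries, against 110, 155 and 263 in treated wild-type libraries. The untreated genotypes thus differed in Y-linked reads, which wild-type libraries other than those numbered 1 nearly lacked, and the treated p53-null library 2 stood apart from the other p53-null ones.

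In untreated cells, 6 of the 10 members differed between genotypes: the RNAs of Plagl1, Grb10 and Peg3 were higher in p53-null cells, and those of H19, Dlk1 and Meg3 were lower. The higher ones had low levels, with an average log2 CPM of 2.18, 3.89 and 1.52, and the lower ones had 13.88, 7.00 and 9.26. The part of level or depth in these directions was not tested. Igf2, the growth factor of the group, did not pass the test. In this comparison 33.1% of all genes were called, 20.4% higher and 12.8% lower, so the members' count is to be read against a frequent background. The median log2 fold change was 0.60 for the members, beside 0.09 over all genes. With only genes of at least 5 CPM in 2 libraries kept, the median over all genes was -0.04. After doxorubicin, 2 of the 10 passed, with Mest higher and Dlk1 lower in p53-null cells, where 12.1% of all genes were called, 5.24% higher and 6.83% lower. With a term for libraries that held 100 or more Y-linked reads, chosen after seeing the data, 3 members passed in untreated cells, H19, Dlk1 and Meg3, all lower in p53-null cells. Grb10, Plagl1 and Peg3 then had log2 fold changes of 1.16, 2.01 and 1.31 (adjusted p = 0.076, 0.057 and 0.159, limma). Mest and Dlk1 passed after doxorubicin with this term too. Without it, the members' median after doxorubicin was 0.06, beside 0.03 over all genes.

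**Figure D1:**
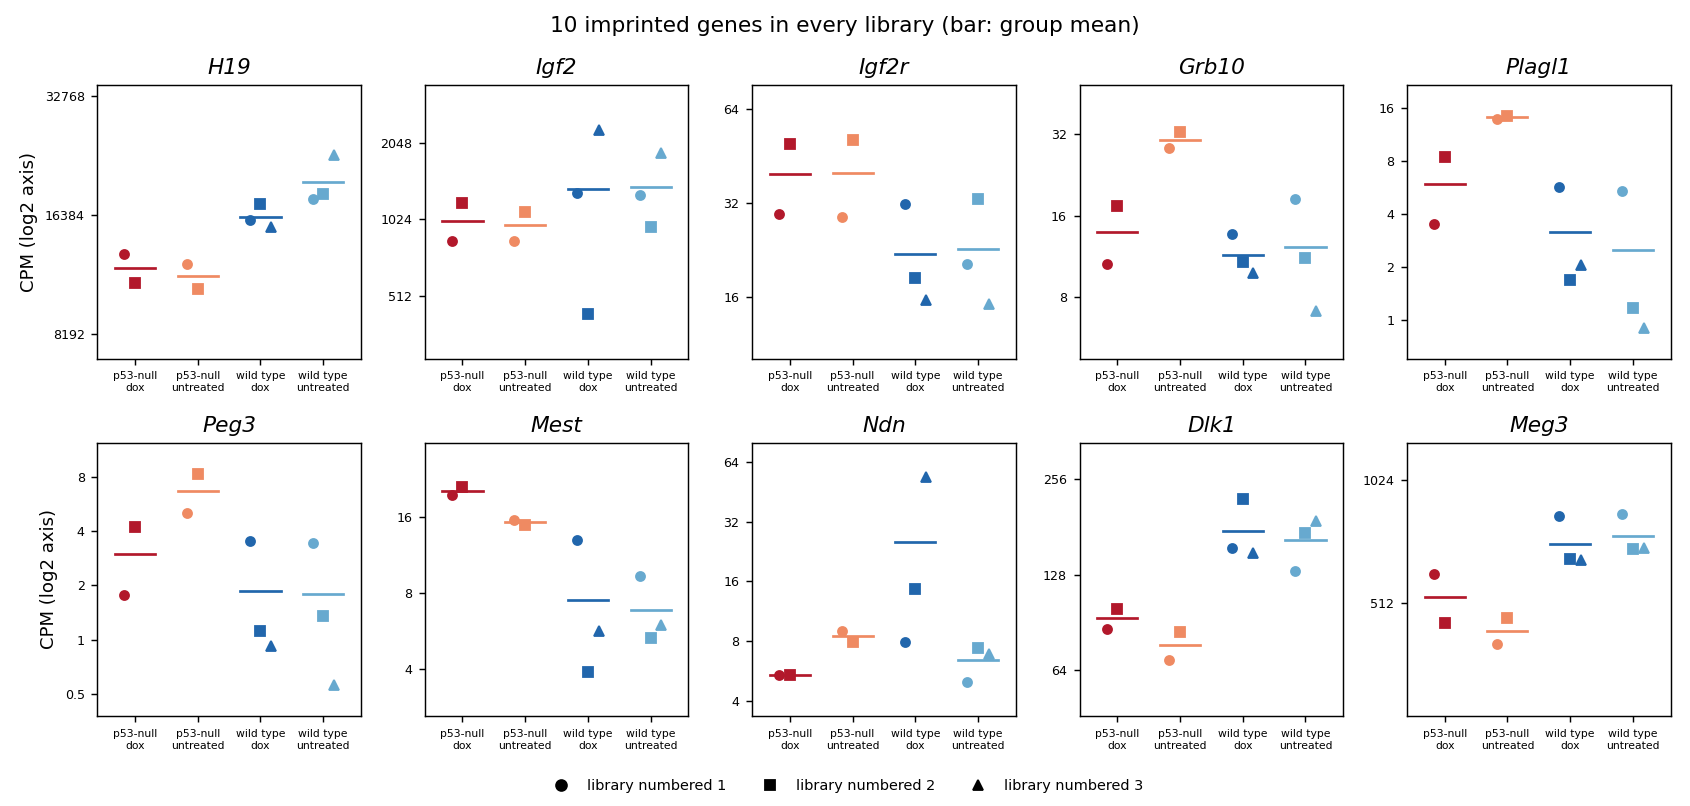
CPM of each of the 10 genes in every library on a log2 axis, a panel per gene and a column per group, with a symbol per library number and a bar at the group mean (n = 2 per p53-null group, n = 3 per wild-type group). In these scaled values the p53-null libraries of H19, Dlk1 and Meg3 lie below all wild-type libraries and those of Mest above them, while those of Igf2 and Igf2r overlap.

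H19 is a long non-coding RNA that shares enhancers with its neighbour Igf2, and CTCF bound to the unmethylated maternal copy directs these enhancers to H19. H19 had 12316 and 10653 CPM in untreated p53-null libraries, against 17972, 18503 and 23331 CPM in untreated wild-type libraries. It had 13060 and 11020.4 CPM in doxorubicin-treated p53-null libraries, against 15957, 17470.4 and 15268 CPM in doxorubicin-treated wild-type libraries. In scaled CPM all 4 p53-null libraries lay below all 6 wild-type libraries, while shares of reads overlapped. In untreated cells H19 was lower in p53-null cells, with a log2 fold change of -0.79 (SE 0.20, 95% interval -1.24 to -0.34, adjusted p = 0.0176, limma). After doxorubicin the log2 fold change was -0.43 (95% interval -0.89 to 0.02, adjusted p = 0.195). H19 took 1.30% to 1.42% of the reads of a p53-null library, against 1.40% to 2.07% of a wild-type library, and ranked between 1 and 4 by reads among all genes.

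Igf2 encodes a fetal growth factor that signals through the IGF1 receptor. Igf2 had 839.7 and 1099 CPM in untreated p53-null libraries, against 1280.3, 959 and 1863 CPM in untreated wild-type libraries. It had 839.7 and 1188 CPM in doxorubicin-treated p53-null libraries, against 1302, 437 and 2296 CPM in doxorubicin-treated wild-type libraries. The groups overlapped, and the treated wild-type libraries alone spanned the values of all others. The log2 fold change of p53-null over wild type was -0.46 (95% interval -1.72 to 0.81, adjusted p = 0.556) in untreated cells and -0.13 (-1.39 to 1.13, adjusted p = 0.905) after doxorubicin. These intervals leave room for large differences in either direction. The ratio of H19 to Igf2 reads within a library, not corrected for length, was 9.28 to 15.6 in treated and 9.69 to 14.7 in untreated p53-null cells, and 6.65 to 40.0 in treated and 12.5 to 19.3 in untreated wild-type cells. In treated wild-type cells the highest ratio stood in library 2, where Igf2 was lowest, and the lowest in library 3, where Igf2 was highest.

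Igf2r encodes the receptor that takes IGF2 to the lysosome for degradation. Igf2r had 28.8 and 50.8 CPM in untreated p53-null libraries, against 20.4, 32.8 and 15.2 CPM in untreated wild-type libraries. It had 29.5 and 49.3 CPM in doxorubicin-treated p53-null libraries, against 31.7, 18.4 and 15.6 CPM in doxorubicin-treated wild-type libraries. The genotypes overlapped with and without treatment. The log2 fold change was 0.81 (95% interval -0.14 to 1.75, adjusted p = 0.164) in untreated cells and 0.85 (-0.09 to 1.80, adjusted p = 0.219) after doxorubicin. Airn, the antisense RNA that overlaps Igf2r, had 3 to 7 reads in p53-null and 0 to 2 in the shallower wild-type libraries. In CPM these were 0.0943 to 0.308 and 0 to 0.225, and the genotypes overlapped. The strand of the reads is not stated, so reads of overlapping genes cannot be separated, which also holds for Meg3 with Rtl1 and for Mest with Copg2.

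Grb10 encodes an adaptor protein that damps signalling from the insulin and IGF1 receptors. Grb10 had 28.5 and 32.6 CPM in untreated p53-null libraries, against 18.5, 11.1 and 7.08 CPM in untreated wild-type libraries. It had 10.6 and 17.3 CPM in doxorubicin-treated p53-null libraries, against 13.7, 10.8 and 9.78 CPM in doxorubicin-treated wild-type libraries. The untreated groups did not overlap and the treated ones did. Grb10 was 2.61-fold higher in untreated p53-null cells (log2 fold change 1.38, SE 0.39, 95% interval 0.52 to 2.24, adjusted p = 0.0235, limma). After doxorubicin the log2 fold change was 0.25 (95% interval -0.61 to 1.11, adjusted p = 0.716).

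Dlk1 encodes a transmembrane protein with EGF-like repeats that restrains adipocyte differentiation, and in the mouse it is the paternally expressed neighbour of Meg3 on chromosome 12. Dlk1 had 68.9 and 84.6 CPM in untreated p53-null libraries, against 131, 173 and 188 CPM in untreated wild-type libraries. It had 86.3 and 100.1 CPM in doxorubicin-treated p53-null libraries, against 155, 222 and 149 CPM in doxorubicin-treated wild-type libraries. In scaled CPM every p53-null library lay below every wild-type library, which did not hold for reads over library size. Dlk1 was lower in p53-null cells both untreated (log2 fold change -1.08, SE 0.25, 95% interval -1.63 to -0.54, adjusted p = 0.0112, limma) and after doxorubicin (-0.89, SE 0.25, -1.43 to -0.34, adjusted p = 0.0427). No other member was called in both comparisons. Of 25 alternatives, the call of Dlk1 held in 21 for untreated cells and in 10 after doxorubicin.

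Meg3 is the maternally expressed long non-coding RNA of that domain. Meg3 had 404 and 468 CPM in untreated p53-null libraries, against 842, 695 and 698 CPM in untreated wild-type libraries. It had 601 and 456 CPM in doxorubicin-treated p53-null libraries, against 834, 655 and 651 CPM in doxorubicin-treated wild-type libraries. Again no p53-null library reached a wild-type one in scaled CPM, and again this did not hold for reads over library size. Meg3 was lower in untreated p53-null cells (log2 fold change -0.77, SE 0.21, 95% interval -1.23 to -0.31, adjusted p = 0.0208, limma). After doxorubicin its log2 fold change was -0.44 (95% interval -0.90 to 0.03, adjusted p = 0.2). The ratio of Meg3 to Dlk1 reads within a library, not corrected for length, was 4.55 to 6.97 in treated and 5.54 to 5.87 in untreated p53-null cells, and 2.96 to 5.38 in treated and 3.70 to 6.41 in untreated wild-type cells.

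Of 5 other genes of the domain, Rian and Rtl1 were higher in untreated p53-null cells, and Begain (log2 fold change -0.50, adjusted p = 0.191), Mirg (0.55, adjusted p = 0.34) and Dio3 (-0.05, adjusted p = 0.942) did not pass. Rian, a maternally expressed host of small nucleolar RNAs, had 52.5 and 24.3 CPM in untreated p53-null libraries, against 9.76, 7.55 and 6.07 CPM in untreated wild-type libraries. It was 4.45-fold higher in p53-null cells (adjusted p = 0.00449, limma), and without untreated p53-null library 1 the adjusted p was 0.0595. Rtl1, a paternally expressed gene derived from a retrotransposon, is named here after its values were seen, since it overlaps Meg3. It had 49 and 47 reads in untreated p53-null libraries, against 9, 6 and 4 in untreated wild-type libraries, and was higher (log2 fold change 1.22, adjusted p = 0.0431).

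**Figure D2:**
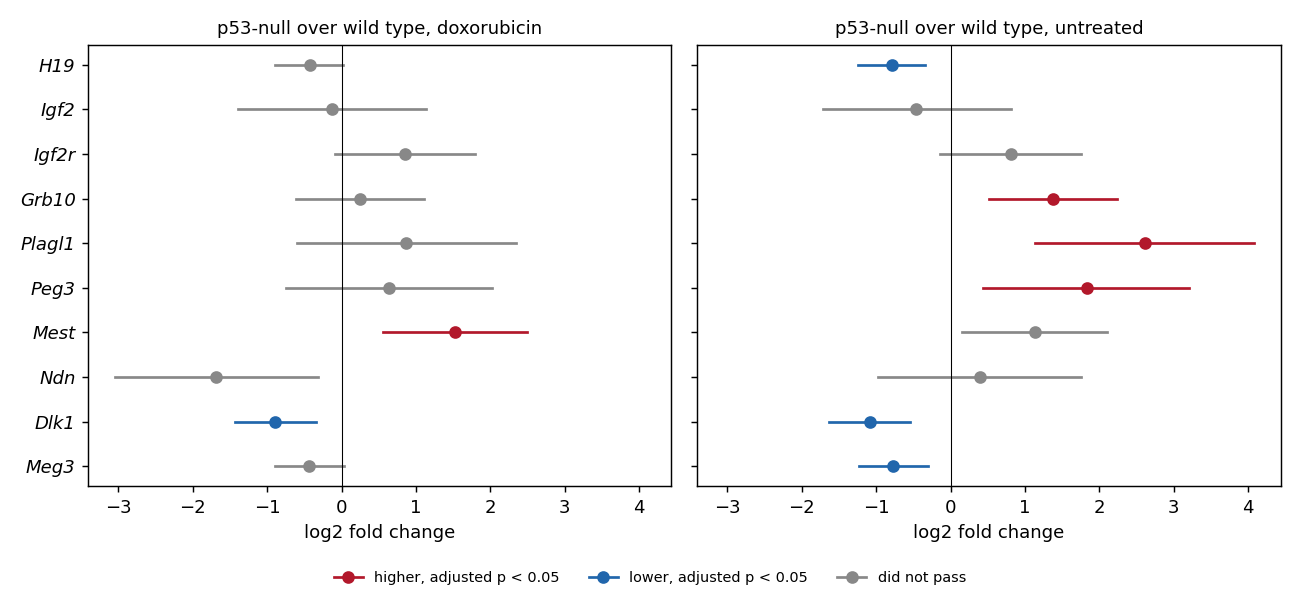
Log2 fold change of p53-null over wild-type cells with its 95% interval for the 10 genes, after doxorubicin (left) and untreated (right), with colours for calls at an adjusted p of 0.05. After doxorubicin Mest is higher and Dlk1 lower, and in untreated cells 3 genes are higher and 3 lower.

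Plagl1 encodes ZAC1, a zinc finger transcription factor that in the mouse regulates other imprinted genes. Plagl1 had 13.8 and 14.4 CPM in untreated p53-null libraries (288 and 328 reads), against 5.36, 1.17 and 0.899 CPM in untreated wild-type libraries (45, 13 and 8 reads). It had 3.49 and 8.37 CPM in doxorubicin-treated p53-null libraries, against 5.70, 1.67 and 2.06 CPM in doxorubicin-treated wild-type libraries. The untreated groups stood apart and the treated ones overlapped. Plagl1 was 6.11-fold higher in untreated p53-null cells (log2 fold change 2.61, SE 0.66, 95% interval 1.14 to 4.08, adjusted p = 0.0161, limma). After doxorubicin the log2 fold change was 0.87 (95% interval -0.60 to 2.34, adjusted p = 0.422).

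Peg3 encodes a large zinc finger protein that in the mouse affects growth and maternal behaviour. Peg3 had 5.09 and 8.30 CPM in untreated p53-null libraries (106 and 189 reads), against 3.45, 1.35 and 0.562 CPM in untreated wild-type libraries (29, 15 and 5 reads). It had 1.78 and 4.21 CPM in doxorubicin-treated p53-null libraries, against 3.55, 1.12 and 0.926 CPM in doxorubicin-treated wild-type libraries. As for Plagl1, the groups stood apart only without treatment. Peg3 was 3.54-fold higher in untreated p53-null cells (log2 fold change 1.83, SE 0.62, 95% interval 0.44 to 3.21, adjusted p = 0.046, limma), close to the threshold and past it in 11 of 25 alternatives. After doxorubicin the log2 fold change was 0.64 (95% interval -0.74 to 2.02, adjusted p = 0.537). For Plagl1 and Peg3, as for Grb10 and Mest, the library numbered 1 held the highest value of each wild-type group. These are the wild-type libraries with 166 and 147 Y-linked reads, and with both of these libraries left out 7 members passed in untreated cells.

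Mest encodes a protein with the fold of alpha/beta hydrolases and favours growth in the mouse. Mest had 19.4 and 20.9 CPM in doxorubicin-treated p53-null libraries, against 12.9, 3.91 and 5.66 CPM in doxorubicin-treated wild-type libraries. It had 15.6 and 14.8 CPM in untreated p53-null libraries, against 9.28, 5.30 and 5.96 CPM in untreated wild-type libraries. All 4 p53-null libraries lay above all 6 wild-type ones. After doxorubicin Mest was 2.89-fold higher in p53-null cells (log2 fold change 1.53, SE 0.44, 95% interval 0.56 to 2.50, adjusted p = 0.0474, limma). This call was close to the threshold and held in 11 of 25 alternatives. In untreated cells its log2 fold change was 1.13 (95% interval 0.16 to 2.11, adjusted p = 0.0691). Copg2, which overlaps Mest, had 160 to 234 reads in p53-null and 36 to 81 in the shallower wild-type libraries. In CPM these were 7.03 to 10.1 and 4.29 to 8.03, and the genotypes overlapped. Its log2 fold changes were 0.36 after doxorubicin (adjusted p = 0.541) and 0.65 in untreated cells (adjusted p = 0.177).

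Groups of the 2 genotypes did not overlap for 8 members in untreated cells and for 5 after doxorubicin, and the same held for 64.9% (36.1% higher, 28.8% lower) and 41.8% (21.8% higher, 20.0% lower) of all genes. With libraries of both treatments together, H19, Dlk1 and Meg3 lay lower and Mest higher in every p53-null library after the scaling used here. Of all genes, 17.2% had no overlap in that arrangement, 9.46% higher and 7.72% lower. For H19, Dlk1 and Meg3 the separation depended on the scaling. As a share of reads, H19 had 1.42% in untreated p53-null library 1 and 1.40% in treated wild-type library 3. Reads over library size overlapped between genotypes for Dlk1 and Meg3 too.

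These calls rest on few libraries. In untreated cells 0 members passed without p53-null library 1 and 0 without p53-null library 2, 1 without wild-type library 3 and 3 without wild-type library 2. After doxorubicin 0 passed when any 1 of the p53-null libraries, treated or untreated, or any 1 of the wild-type libraries numbered 2 or 3 was left out. Scaled by library size alone, the median log2 fold change of all genes between untreated genotypes was 0.43, and 4 members were higher and 0 lower. Relative to that median, H19, Dlk1 and Meg3 lay at -0.83, -1.12 and -0.80, and with the scaling used here at -0.88, -1.17 and -0.85 relative to its own. A change of scaling moves all genes by nearly the same amount, so these values had to be close. They do not test which scaling is right, and the lower calls depend on that choice. After doxorubicin, scaling by library size alone left 1 member higher and 0 lower (median of all genes 0.29), and median-of-ratios scaling 0 higher and 1 lower.

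In the main fit, which does not pair libraries by number, no member passed for a response to doxorubicin. Paired by number, Ndn passed in wild-type cells, as given below. In p53-null cells limma called 0 of 10 members, limma-voom 0, and 1 (Grb10) stood at an unadjusted p under 0.05, while 0% of all genes were called (1255 of 11177 stood at an unadjusted p under 0.05, and 2 were called with no filter). In wild-type cells limma called 0 of 10, limma-voom 0, and 1 (Ndn) stood at an unadjusted p under 0.05, while 12.6% of all genes were called, 8.02% higher and 4.56% lower. For the difference between these responses limma called 0, limma-voom 0, and 1 (Ndn) stood at an unadjusted p under 0.05, while 2.34% of all genes were called, 0.447% higher and 1.89% lower. A missing call does not show equal levels.

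Ndn encodes necdin, a protein of the MAGE family that restrains cell division. Ndn had 5.42 and 5.41 CPM in treated p53-null libraries, against 9.02 and 7.95 CPM in untreated p53-null libraries. It had 7.94, 14.7 and 53.5 CPM in treated wild-type libraries, against 5.00, 7.37 and 6.85 CPM in untreated wild-type libraries. Treated libraries lay below untreated ones in p53-null cells and above them in wild-type cells. The log2 fold change of treated over untreated was -0.60 (95% interval -2.10 to 0.89, adjusted p = 0.767) in p53-null cells and 1.48 (0.26 to 2.70, adjusted p = 0.113) in wild-type cells. The difference between the responses was -2.08 (95% interval -4.01 to -0.15, adjusted p = 0.21). With the libraries of both genotypes paired by number in a single fit, the wild-type response passed (adjusted p = 0.0319, limma), though pairing is not shown for p53-null libraries. It also passed without treated wild-type library 1 (log2 fold change 2.07, adjusted p = 0.0288), and without treated library 3, the highest, the log2 fold change was 0.67. Between genotypes Ndn had a log2 fold change of -1.69 (adjusted p = 0.105) after doxorubicin, which passed without treated wild-type library 1 (adjusted p = 0.0245), and of 0.39 (adjusted p = 0.641) in untreated cells.

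Treated and untreated libraries did not overlap for 6 members in p53-null cells (Dlk1, Grb10, Mest, Ndn, Peg3 and Plagl1) and for 2 in wild-type cells (H19 and Ndn). Of all genes, 53.8% (25.4% higher, 28.4% lower) in p53-null and 29.0% (17.0% higher, 12.0% lower) in wild-type cells had no overlap. For H19 the log2 fold change of treated over untreated was 0.07 (95% interval -0.43 to 0.56, adjusted p = 0.933) in p53-null and -0.29 (-0.69 to 0.12, adjusted p = 0.344) in wild-type cells. Grb10, Plagl1 and Peg3 did not pass, and their p53-null values are set against the same untreated p53-null libraries in which they were called higher than wild type, so the sign of these values is not independent of that call. Grb10 had -1.14 (95% interval -2.08 to -0.20, adjusted p = 0.388) in p53-null and -0.01 (-0.77 to 0.76) in wild-type cells. Plagl1 had -1.30 (-2.91 to 0.31, adjusted p = 0.526) in p53-null and 0.44 (-0.87 to 1.76) in wild-type cells. Peg3 had -1.10 (-2.61 to 0.42, adjusted p = 0.574) in p53-null and 0.09 (-1.15 to 1.32) in wild-type cells. The test of the difference between these responses gave adjusted p-values of 0.263 for Grb10, 0.308 for Plagl1 and 0.453 for Peg3. Dlk1 had an interval of -0.40 to 0.58 in wild-type cells and Meg3 of -0.48 to 0.35, narrower than those of Igf2 (-1.40 to 0.86) and Mest (-0.87 to 0.87).

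**Figure D3:**
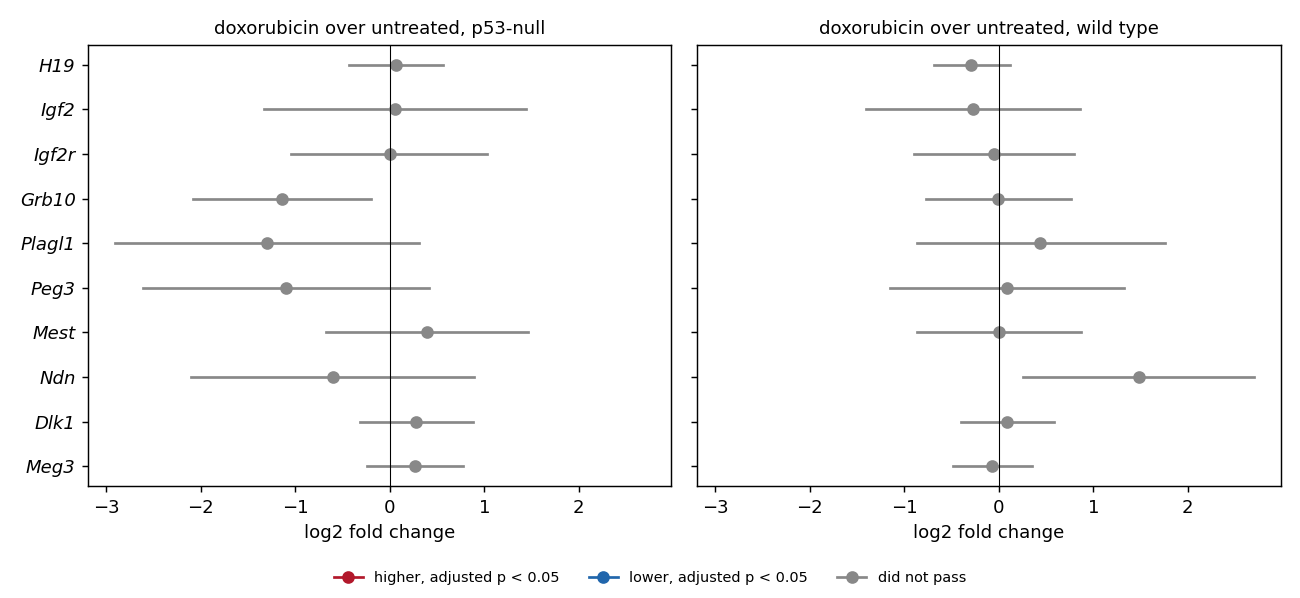
Log2 fold change of doxorubicin-treated over untreated cells with its 95% interval for the 10 genes in p53-null (left) and wild-type cells (right). No gene passes an adjusted p of 0.05 in this fit without pairing, and Ndn lies at -0.60 in p53-null and 1.48 in wild-type cells.

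Other imprinted genes moved in both directions between untreated genotypes. Of 57 listed, 56 were measured and 37 could be tested, of which 11 were higher and 4 lower in p53-null cells. These were 40.5% of the genes tested, where 33.1% of all genes were called, 20.4% higher and 12.8% lower. The list had a median log2 fold change of 0.04, beside 0.09 over all genes. Peg12, a paternally expressed gene of the FRAT family, had 104 and 77.1 CPM in untreated p53-null libraries, against 4.88, 5.21 and 5.51 CPM in untreated wild-type libraries, and was 15.8-fold higher (adjusted p = 7.91e-06, limma). Kcnq1ot1, the paternally expressed RNA that silences the neighbours of Kcnq1, had 150.4 and 119 CPM in untreated p53-null libraries, against 17.0, 16.2 and 24.6 CPM in untreated wild-type libraries (adjusted p = 0.00138). H13, which encodes signal peptide peptidase, had 126 and 140.0 CPM in untreated p53-null libraries, against 310.1, 318 and 321 CPM in untreated wild-type libraries, and was lower (adjusted p = 0.00237). Without untreated p53-null library 1 the number called was 3, without library 2 it was 6, and without untreated wild-type library 2 or library 3 it was 8 each.

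**Figure D4:**
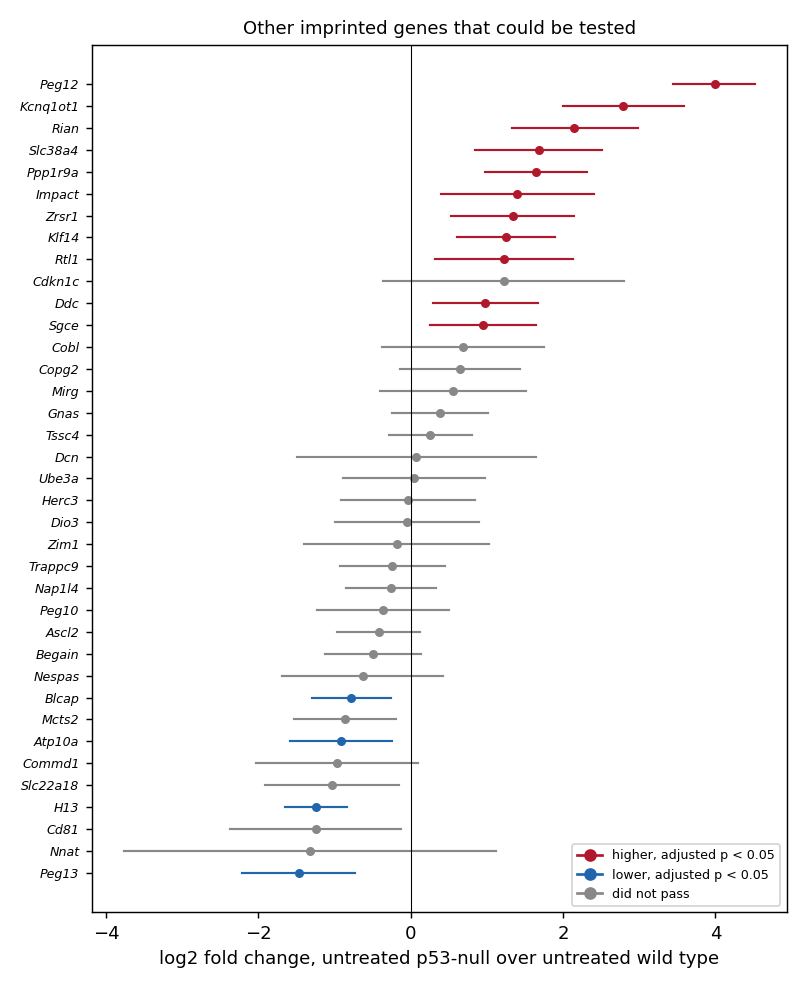
Log2 fold change of untreated p53-null over untreated wild-type cells with its 95% interval for the 37 other imprinted genes tested, ordered by size, with colours for calls at an adjusted p of 0.05. The 11 higher genes are led by Peg12 at 3.99, and 4 genes are lower.

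After doxorubicin 4 of these 37 genes were higher and 3 lower in p53-null cells, 18.9% of them, where 12.1% of all genes were called, 5.24% higher and 6.83% lower. Peg12 was again higher, at 69.3 and 71.7 CPM in treated p53-null libraries, against 5.04, 6.60 and 5.66 CPM in treated wild-type libraries (adjusted p = 1.25e-05, limma). Ppp1r9a, which encodes an actin-binding regulator of protein phosphatase, had 44 and 23 reads in treated p53-null libraries, against 1, 3 and 1 in treated wild-type libraries, and was also called higher (adjusted p = 0.0185). Blcap was lower, with a log2 fold change of -1.48 (adjusted p = 0.00281). The number called was 4 without treated p53-null library 1 and 4 without library 2.

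The response to doxorubicin passed for 0 of the 37 other imprinted genes in p53-null cells, and in wild-type cells 3 were higher and 2 lower. Over all genes 0% were called in p53-null cells, and in wild-type cells 12.6%, near the 13.5% of this list. With the libraries of both genotypes paired by number, 5 were higher and 4 lower in wild-type cells. Ascl2, a transcription factor gene needed in the mouse placenta, had 2 and 6 reads in treated p53-null libraries, against 1 and 0 in untreated ones. It had 61, 61 and 43 reads in treated wild-type libraries, against 1, 3 and 2 in untreated ones, and rose there by 3.03 on the log2(CPM + 0.5) scale, which understates changes of so few reads (adjusted p = 3.52e-05, limma). After doxorubicin it was lower in p53-null cells (-3.19, adjusted p = 2.43e-05), and the responses differed between genotypes by -2.76 (adjusted p = 0.00432). In wild-type cells Blcap rose by 0.90 (adjusted p = 0.021), Atp10a changed by -1.07 (adjusted p = 0.0279) and Mcts2 by -0.98 (adjusted p = 0.0391). Ascl2 alone of these 4 passed in all 25 alternatives, and the 3 others each missed the threshold in at least 8 of them. The number called in wild-type cells was 1 without untreated wild-type library 2, 2 without untreated library 3, 2 and 3 without treated libraries 1 and 3, and 2 and 3 without the untreated and the treated p53-null library 1.

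Among genes of the insulin-like growth factor pathway, 24 of 27 could be tested. In untreated cells 6 were higher and 1 lower in p53-null cells, 29.2% of those tested beside 33.1% of all genes, so the share called was no higher than the background. The list had a median log2 fold change of 0.43, beside 0.09 over all genes. Irs1, which encodes the docking protein of the insulin and IGF1 receptors, had 11.1 and 10.8 CPM in untreated p53-null libraries, against 1.43, 1.62 and 0.899 CPM in untreated wild-type libraries, and was 6.40-fold higher (adjusted p = 0.000658, limma). The binding protein genes Igfbp5 and Igfbp4 were 2.34-fold and 2.62-fold higher (adjusted p = 0.00984 and 0.0105), and Pappa, whose protease cleaves IGF binding proteins, was 2.88-fold higher (adjusted p = 0.0101). When either untreated p53-null library was left out, 1 gene of the pathway passed. After doxorubicin 1 was higher, Irs1, at 3.26-fold (adjusted p = 0.00527), which is 4.17% of the list beside 12.1% of all genes. In response to doxorubicin 0 passed in p53-null cells, and in wild-type cells 0 were higher and 2 lower, 8.33% of the list beside 12.6% of all genes. These were Igf2bp1 (-1.13, adjusted p = 0.0123) and Igf2bp3 (-0.92, adjusted p = 0.0419), whose proteins bind mRNAs that include Igf2. Igf2bp1 passed in all 25 alternatives and Igf2bp3 in 13 of them. Paired by number, 3 were higher and 2 lower in wild-type cells.

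Among genes whose proteins set, read or keep imprints, 18 of 22 could be tested. In untreated cells 13 were higher and 2 lower in p53-null cells, 83.3% of those tested beside 33.1% of all genes. The list was chosen with earlier results of these data known, so this share describes it and tests nothing. The list had a median log2 fold change of 1.41, beside 0.09 over all genes. Ctcf, which encodes the insulator protein, had 83.9 and 105 CPM in untreated p53-null libraries, against 27.4, 22.3 and 12.6 CPM in untreated wild-type libraries, and was 4.67-fold higher (adjusted p = 0.00443, limma). Its germ-line relative Ctcfl had 131 and 138 reads in untreated p53-null libraries, against 3, 5 and 9 in untreated wild-type libraries (adjusted p = 0.00147). Arid4b, a chromatin regulator, and Ezh2, a histone H3 methyltransferase, were 3.36-fold and 3.87-fold higher (adjusted p = 0.00801 and 0.00811). When either untreated p53-null library was left out, 2 genes of this list passed, and without untreated wild-type library 3 there were 8.

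After doxorubicin 5 of the imprint genes were higher in p53-null cells and 0 lower, 27.8% of the list beside 12.1% of all genes. Ctcfl was 5.34-fold, Ezh2 3.84-fold, Ctcf 2.97-fold and Uhrf1, whose protein guides DNA methyltransferase 1, 3.46-fold higher, and Tet2, named after its values were seen, completed the list. Without treated p53-null library 2 there was 1, and there were 3 without treated p53-null library 1, 3 without treated wild-type library 3 and 3 without untreated wild-type library 2. In response to doxorubicin 0 passed in p53-null cells, and in wild-type cells 1 was lower, Trim28, which encodes a corepressor that zinc finger proteins recruit to imprints. Trim28 had 448 and 420.1 CPM in treated and 335 and 351 CPM in untreated p53-null libraries, and 291, 316 and 251 CPM in treated and 551, 654 and 610.4 CPM in untreated wild-type libraries. Its log2 fold change in wild-type cells was -1.08 (adjusted p = 0.00223, limma), and the responses differed between genotypes by 1.42 (adjusted p = 0.022). Paired by number, 4 were higher and 1 lower in wild-type cells.

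In p53-null cells, where limma called none of these 3 lists' genes for a response to doxorubicin, 2 other imprinted genes, 6 genes of the IGF pathway and 1 of the imprint maintenance genes stood at an unadjusted p under 0.05, and limma-voom called 0, 0 and 0. For the difference between the responses limma called 1, 0 and 1, limma-voom 0, 0 and 1, and 8, 4 and 4 stood at an unadjusted p under 0.05.

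For the 8 members with an average log2 CPM of 3 or more, the genes of most similar pattern were found by Pearson r over the 10 libraries among 5557 genes of such a level. Peg3 and Plagl1 lay below it, and so were neither searched for nor among the candidates. The libraries share genotype and depth, so these values describe the pattern only. H19 was nearest to C030046I01Rik (r = 0.970), Wwp2 (r = 0.958) and Coro1c (r = 0.957). Igf2 was nearest to Jund (r = 0.938), Tprkb (r = 0.928) and Vrk1 (r = 0.919), and Igf2r to Atrx (r = 0.952), Acp1 (r = 0.946) and Rab12 (r = 0.939). Grb10 was nearest to Abcc1 (r = 0.957), Myo10 (r = 0.957) and Wasf2 (r = 0.956). In the chromosome 12 domain Dlk1 was nearest to Mcm3ap (r = 0.973), Mon2 (r = 0.970) and Ccpg1 (r = 0.967), and Meg3 to Ss18l1 (r = 0.971), Sap30bp (r = 0.970) and Rps14 (r = 0.969). Mest was nearest to Stmn2 (r = 0.947), Slc5a3 (r = 0.933) and Six2 (r = 0.929), and Ndn to Arhgdib (r = 0.980), Smurf1 (r = 0.971) and Akr1a4 (r = 0.970). None of these 8 was among the 3 nearest genes of another. Among the members themselves, Peg3 and Plagl1 (r = 0.96), Peg3 and Grb10 (r = 0.95) and Grb10 and Plagl1 (r = 0.93) had the highest values of all pairs of members, about as high as for the nearest genes of Grb10. The lowest was that of Dlk1 and Mest (r = -0.86).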

How the data were processed

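RNA was measured in 10 libraries of 4 groups, made by 3′ sequencing of poly(A) RNA per the labels. The authors deposited 1 value per gene and library on a variance-stabilised log2 scale, in files without a header. DESeq and the build mm9 are named, per the submitters' processing notes. Aligner, annotation and use of strand: not given in the sources used here. In every library the deposited values followed the same function of reads over a factor of that library, which allowed whole reads to be worked back: of 22122 distinct values above 250 reads, 99.84% came out within 0.01 of a whole number, and the 35 exceptions, at 131855 reads or more, lay at most 0.301 away. This step and the fit were tested on simulated data. Of simulated 2-fold changes, the fit called 17% in the p53-null response and 40% in the wild-type response. Between genotypes it called 23% in untreated and 35% in treated cells, and for the difference of responses 6%. Of 4-fold changes it called 78%, 90%, 79%, 81% and 47% in the same order. In this simulation only a small set of genes changed in each comparison, and most 2-fold changes were missed. Where many genes change, as between untreated genotypes, the adjustment of p-values is less strict. The simulated shares therefore do not give the power of the real comparisons.

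The 11177 genes with 1 CPM or more in 2 or more libraries were fitted as log2(CPM + 0.5) in limma 3.58.1 (R 4.3.3) with its trend option, scaled with trimmed means of M values, trimming 30% of M values and 5% of levels. A single model held 4 group means over the 10 libraries. Tests are two-sided, and p-values were adjusted by Benjamini-Hochberg over all 11177 genes, with a threshold of 0.05. Every adjusted p in the text comes from limma. Count models were left out, because the reads were worked back from the deposited values.

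The members and the lists were chosen with earlier results of these data known. Named are all members, up to 4 called genes of each list in each comparison by smallest p, Trp53, Cdkn1a and Mdm2 as a check of the labels, and the 3 genes most like each member. Outside this rule, Tyrobp and Csf1r were named by their values, since they made up most of a marker sum. Rtl1 and Tet2 were also named after their values were seen. Begain, Mirg and Dio3 were named as genes of the Meg3 domain, and Airn and Copg2 as genes that overlap members. Single markers were named beside their sums. Wild-type libraries that share a number deviated together from their group means (r = 0.581, 0.342 and 0.611 for numbers 1, 2 and 3), which pairs them by the data and not by a statement of the labels. For p53-null libraries, with 2 numbers, pairing is not shown. The study's list of p53 binding sites was not used here, since no annotation of its build was at hand.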

Additional observations from a re-analysis of the deposited data

Results flagged for a closer look

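The response to doxorubicin differed between genotypes for 4 of the genes named, by the test of the difference itself (p53-null response minus wild-type response on the log2 scale, limma). The difference was -2.76 for Ascl2 (adjusted p = 0.00432), -2.05 for Cdkn1a (adjusted p = 0.00709), -2.67 for Mdm2 (adjusted p = 0.00898) and 1.42 for Trim28 (adjusted p = 0.022). Cdkn1a and Mdm2 are known p53 targets. Over the alternatives the adjusted p ran from 0.00215 to 0.186 for Ascl2 and from 0.0143 to 0.246 for Trim28. None of the 10 members was called in this test, and Ndn had an unadjusted p of 0.037.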

How the results depend on the processing

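The alternatives changed scaling, the value added before the logarithm, the filter, the test, the samples fitted and the pairing, and leaving out both wild-type libraries of a number and the term for Y-linked reads were added after the data were seen. Depth limits the lower members most, since Plagl1 and Peg3 rest on fewer than 50 reads in each untreated wild-type library. In the wild-type response, where the numbers pair the libraries, the block changed the call of 1 member, Ndn. The cause of the changes was not tested, other than that leaving libraries out leaves fewer samples. Scaled by library size alone, the number called was 1 of the IGF pathway in the wild-type response, 1 of the members and 2 of the IGF pathway in treated genotypes, and log2 folds took the other sign for Mest 0.02 and Grb10 0.02 in the wild-type response, Igf2 -0.01 in the p53-null response, Igf2 0.17 in treated genotypes, Igf2r -0.05 in the difference of responses. With upper quartile scaling, the number called was 1 of the members in treated genotypes, 0 of the imprint genes in the difference of responses, and log2 folds took the other sign for Mest 0.02 and Grb10 0.01 in the wild-type response, Igf2r -0.03 in the difference of responses. With limma-voom, the number called was 1 of the IGF pathway in the wild-type response, 0 of the other imprinted genes in the difference of responses, and log2 folds took the other sign for Grb10 0.00 in the wild-type response. With 2 CPM added, log2 folds took the other sign for Mest 0.01 in the wild-type response. With no filter, the number called was 1 of the IGF pathway in the wild-type response, 0 of the members in treated genotypes, 2 of the other imprinted genes in the difference of responses, and log2 folds took the other sign for Igf2r 0.04 in the p53-null response. With at least 5 CPM in 2 libraries, the number called was 9 of the other imprinted genes in untreated genotypes, and log2 folds took the other sign for Igf2r 0.01, Mest 0.05 and Grb10 0.05 in the wild-type response, Igf2r -0.04 in the difference of responses. With only the groups compared, the number called was 1 of the other imprinted genes and 1 of the IGF pathway in the wild-type response, 0 of the members, 3 of the other imprinted genes and 2 of the imprint genes in treated genotypes. With wild-type and p53-null libraries paired by number (a replicate block, within genotype for responses and across genotypes otherwise), the number called was 1 of the members, 9 of the other imprinted genes, 5 of the IGF pathway and 5 of the imprint genes in the wild-type response, 4 of the other imprinted genes, 2 of the IGF pathway and 2 of the imprint genes in the difference of responses, and log2 folds took the other sign for Igf2 0.26 in treated genotypes. Without both p53-null libraries numbered 2, the number called was 1 of the other imprinted genes and 1 of the IGF pathway in the wild-type response, 0 of the members, 3 of the other imprinted genes, 1 of the IGF pathway and 1 of the imprint genes in untreated genotypes, 0 of the members, 4 of the other imprinted genes, 0 of the IGF pathway and 1 of the imprint genes in treated genotypes, 0 of the other imprinted genes and 0 of the imprint genes in the difference of responses, and log2 folds took the other sign for Igf2 -0.05 in the p53-null response, Grb10 -0.04 in treated genotypes. Without both wild-type libraries numbered 1, the number called was 2 of the other imprinted genes in the wild-type response, 4 of the IGF pathway in treated genotypes, 0 of the imprint genes in the difference of responses, and log2 folds took the other sign for Grb10 0.21 in the wild-type response, Igf2r 0.04 in the p53-null response. Without both wild-type libraries numbered 3, the number called was 1 of the other imprinted genes and 1 of the IGF pathway in the wild-type response, 3 of the members and 8 of the imprint genes in untreated genotypes, 0 of the members, 4 of the other imprinted genes and 2 of the IGF pathway in treated genotypes, 0 of the imprint genes in the difference of responses, and log2 folds took the other sign for Peg3 -0.08 and Mest 0.03 in the wild-type response, Igf2 0.40 in treated genotypes, Dlk1 -0.02 in the difference of responses. With a term for 100 or more Y-linked reads in a library, the number called was 2 of the imprint genes in the wild-type response, 3 of the members and 9 of the other imprinted genes in untreated genotypes, 2 of the IGF pathway in treated genotypes, and log2 folds took the other sign for Igf2r 0.03 in the p53-null response. With median-of-ratios scaling, the number called was 1 of the members in treated genotypes, and log2 folds took the other sign for Igf2r 0.05 in the p53-null response. On the deposited values, the number called was 1 of the members in treated genotypes, 0 of the other imprinted genes in the difference of responses, and log2 folds took the other sign for Igf2r 0.06 in the p53-null response. With 1 library left out at a time, the number called ran from 1 to 2 for imprint genes, 0 to 1 for members, 1 to 5 for other imprinted genes and 1 to 3 for IGF pathway in the wild-type response, 0 to 7 for members, 3 to 17 for other imprinted genes, 2 to 15 for imprint genes and 1 to 8 for IGF pathway in untreated genotypes, 1 to 4 for IGF pathway, 0 to 2 for members, 1 to 5 for imprint genes and 4 to 9 for other imprinted genes in treated genotypes, 0 to 1 for imprint genes in the difference of responses. Uncalled log2 folds that changed sign in these runs ranged from -0.12 to 0.19 for Dlk1, -0.18 to 0.05 for Meg3, -0.45 to 0.32 for Mest, -0.33 to 0.35 for Grb10, -0.38 to 0.60 for Peg3, -0.02 to 1.11 for Plagl1, -0.34 to 0.24 for Igf2r and -0.87 to 0.37 for Igf2 in the wild-type response, -0.42 to 0.39 for Igf2r, -0.25 to 0.33 for Igf2 and -0.04 to 0.17 for H19 in the p53-null response, -0.75 to 0.49 for Igf2 and -0.04 to 0.64 for Grb10 in treated genotypes, -0.36 to 0.50 for Igf2r and -0.29 to 0.91 for Igf2 in the difference of responses. Over all genes, untreated genotypes gave 2279 higher and 1426 lower calls, against 3339 and 517 by library size and 2573 and 937 by upper quartile, and treated genotypes 586 and 763, against 1211 and 555 by library size. Pairing by number gave 2600 calls for the wild-type response and 1076 for the difference, against 1406 and 261 without it, and only the groups compared gave 784 for the wild-type response and 676 for treated genotypes, against 1349. Upper quartile scaling gave 169 for the difference, and no filter 2 for the p53-null response, against 0. Without both p53-null libraries numbered 2 the counts were 779 for the wild-type response, 216 for untreated and 304 for treated genotypes and 0 for the difference. Without both wild-type libraries numbered 3 they were 629 for the wild-type response and 117 for the difference, and without those numbered 1 129 for the difference.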
